A study of Mus musculus with 12 samples.

Results

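The genes described here are 41 genes of glycolysis and glucose handling, chosen by name: glucose and monocarboxylate transporters, the enzymes from hexokinase to lactate dehydrogenase, the bifunctional enzymes that set fructose-2,6-bisphosphate, the pyruvate dehydrogenase subunit Pdha1 with its kinases, and gluconeogenic enzymes. All 41 were among the 23378 genes of the deposited count table, and 35 passed the filter on low counts and were tested. RNA was sequenced from cells sorted out of kidney cortex of C57BL/6 mice carrying nNosCreERT2-mTmG, in which an inducible Cre recombinase expressed from the neuronal nitric oxide synthase gene switches a membrane reporter from red tdTomato to green GFP. Green cells were collected as macula densa cells, and the cells with the strongest red signal were collected as control cells meant to represent distal tubule and collecting duct. Mice of both diet groups carried these alleles. For 14 days they were fed control diet or a diet low in salt together with enalapril, which blocks formation of angiotensin II, in the drinking water (150 mg/L). There were 2 macula densa libraries and 4 control-cell libraries on each diet, 12 in all. The labels do not say whether libraries of a group came from separate animals, so p-values measure only the spread between these libraries, which may be technical.

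Glycolysis splits glucose into pyruvate, and its flux is set mainly at hexokinase, phosphofructokinase and pyruvate kinase. The PFKFB enzymes make and remove fructose-2,6-bisphosphate, the strongest activator of phosphofructokinase. Pyruvate is either reduced to lactate by lactate dehydrogenase or enters mitochondria, where pyruvate dehydrogenase, which is switched off by the PDK kinases, feeds it into the tricarboxylic acid cycle. In the kidney, gluconeogenesis belongs to the proximal tubule, whereas distal segments consume glucose, and the macula densa is a plaque of epithelial cells that senses luminal salt where the thick ascending limb meets its own glomerulus.

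Levels are given as CPM, counts per megaread of library total after scaling with trimmed means of M values (TMM). Totals per library ran from 4259034 to 14856540 counts, of which 61.2% to 75.9% fell on 2 transcripts, Gm42418 and Mir6236, so that 781241 to 2331458 counts were on nuclear protein-coding genes. A floor of 3 counts corresponds to 0.231 to 0.734 CPM, which covers counting error only. The 6 macula densa markers summed to 2151 to 3087 CPM in macula densa libraries and 44.6 to 434 CPM in control cells, and 5 of the 6 were called higher. In control cells, endothelial markers summed to 46.1 to 1413 CPM and podocyte markers to 44.8 to 1398 CPM, so these libraries were not epithelium of the distal nephron alone. In bulk libraries, fewer cells of a type and less RNA per cell cannot be told apart.

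Macula densa cells differed from control cells in 1 of the 35 tested genes: Pfkfb3, the PFKFB isoform with the highest kinase relative to phosphatase activity, was lower on both diets. On control diet its log2 fold change was -3.20 (SE 0.52), a 9.20-fold lower level (edgeR quasi-likelihood test, adjusted p = 0.00448). On low salt and enalapril it was -2.14 (SE 0.50), or 4.39-fold lower (adjusted p = 0.0270), and averaged over both diets it was -2.67 (SE 0.36; adjusted p = 0.000465). None of the other 34 passed an adjusted p of 0.05 in any of these 3 comparisons. Among all 14180 genes tested, 6.61% passed on control diet, 7.27% on low salt and enalapril and 21.3% in the average, and 1 of 35 is not above these shares. The median log2 fold change of the 35 was 0.03 on control diet and -0.02 on low salt and enalapril, beside -0.05 and -0.06 for all genes tested. The unadjusted p was under 0.05 for 9 of the 35 on control diet, for 3 on the treated diet and for 6 in the average, beside 24.2%, 25.3% and 34.4% of all genes. Libraries of the cell types did not overlap on control diet for 4 genes in the higher direction (15.2% of all genes) and 4 in the lower (16.8%), and on the treated diet for 2 and 4 (15.3% and 19.5%). In both diets at once this held for 0 of 35 higher, beside 6.03% of all genes. In the lower direction it held for 1 of 35, Pfkfb3, beside 7.62% of all genes. The plot of fold changes between cell types shows most genes of the pathway around 0.

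**Figure D1:**
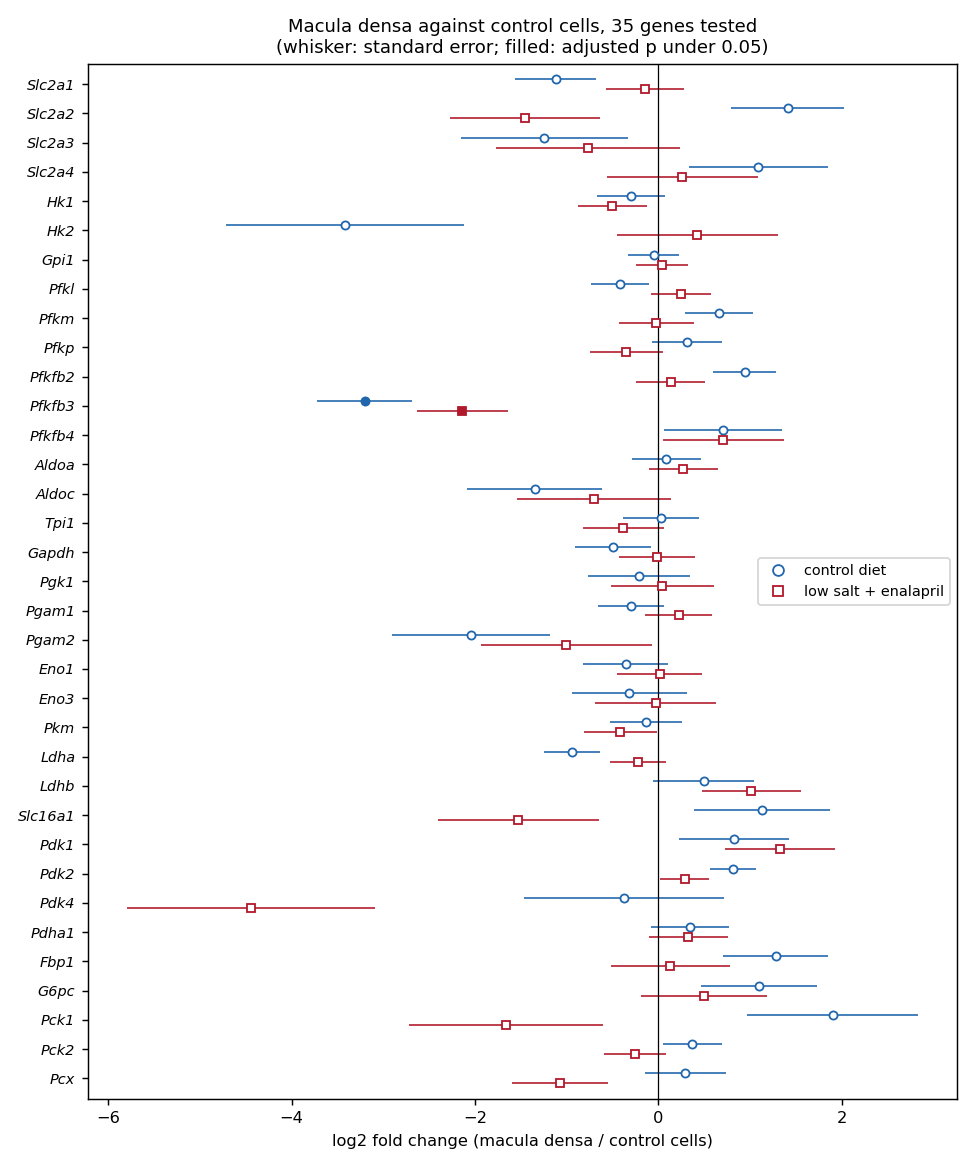
Log2 fold change of the 35 tested genes, macula densa over control cells, on control diet (blue circles) and on low salt and enalapril (red squares), with standard errors as whiskers. Filled symbols have an adjusted p under 0.05, which holds for Pfkfb3 alone, at -3.20 and -2.14; the Hk2 value on control diet rests on 1 and 0 counts in macula densa cells and is no bound.

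Pfkfb3 (ENSMUSG00000026773.19) lies on the reverse strand of chromosome 2, 11471433 to 11554077 in GRCm38. In control cells on control diet its level was 9.40, 16.2, 17.3 and 24.0 CPM in replicates 1 to 4, and on low salt and enalapril it was 16.8, 10.5, 14.3 and 12.6 CPM. In macula densa cells it was 1.64 and 1.95 CPM on control diet and 1.15 and 4.92 CPM on low salt and enalapril. All 4 macula densa libraries were below all 8 control-cell libraries. By a looser criterion, no overlap within each diet taken separately, 7.62% of all genes tested were lower on both diets. The share of all genes for 4 libraries below all 8 was not computed. The averaged difference passed the threshold in all 22 alternative analyses, with log2 fold changes from -3.37 to -2.33. The single-diet differences rested on few libraries: the adjusted p was 0.0671 and 0.0906 on control diet without macula densa replicate 1 or 2, and on low salt and enalapril it was 0.110 without macula densa replicate 1, 0.0524 without control-cell replicate 1 and 0.0512 without control-cell replicate 4. The size on the treated diet also depended on the macula densa libraries, at -1.49 without replicate 1 and -3.57 without replicate 2. That call was lost with limma voom as well (adjusted p = 0.0920). Endothelial markers also differed between the populations, with all 8 called lower in macula densa cells. The control-cell library with the lowest endothelial sum, 46.1 CPM, had the highest Pfkfb3 level, 24.0 CPM. That library also had the highest principal cell marker sum of the control cells, 931 CPM, beside 11.9 to 44.8 CPM in macula densa libraries. The part of these markers in the Pfkfb3 values was not tested.

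The promoters of Pfkfb3 are shown because it was the gene called, and those of Ldha and Ldhb because this isoenzyme pair, described next, had unequal levels. The sequences are from RefSeq (GRCm38.p6) and run from 250 bases before to 50 bases after a transcription start. Capitals mark ACGTG on either strand (CACGT on the printed strand), the core of the hypoxia response element. CACGTG, the E-box recognised by Myc, holds ACGTG on both strands. The 2 Pfkfb3 windows are at chr2:11502041-11502340 and chr2:11553880-11554179 on the reverse strand, the Ldha window is at chr7:46845554-46845853 on the forward strand, and the Ldhb window is at chr6:142507908-142508207 on the reverse strand.
Pfkfb3 internal start: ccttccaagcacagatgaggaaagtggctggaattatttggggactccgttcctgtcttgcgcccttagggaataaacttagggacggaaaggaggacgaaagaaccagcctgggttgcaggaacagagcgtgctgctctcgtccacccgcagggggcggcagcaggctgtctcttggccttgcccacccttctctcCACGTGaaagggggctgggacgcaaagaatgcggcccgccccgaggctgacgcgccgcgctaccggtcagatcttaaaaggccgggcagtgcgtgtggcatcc
Pfkfb3 upstream start: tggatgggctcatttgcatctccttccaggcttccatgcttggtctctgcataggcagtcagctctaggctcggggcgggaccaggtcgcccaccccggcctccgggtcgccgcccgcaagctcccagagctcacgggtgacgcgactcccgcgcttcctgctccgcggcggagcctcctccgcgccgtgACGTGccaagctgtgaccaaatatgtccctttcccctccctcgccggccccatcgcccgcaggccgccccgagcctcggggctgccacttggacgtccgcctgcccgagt
Ldha: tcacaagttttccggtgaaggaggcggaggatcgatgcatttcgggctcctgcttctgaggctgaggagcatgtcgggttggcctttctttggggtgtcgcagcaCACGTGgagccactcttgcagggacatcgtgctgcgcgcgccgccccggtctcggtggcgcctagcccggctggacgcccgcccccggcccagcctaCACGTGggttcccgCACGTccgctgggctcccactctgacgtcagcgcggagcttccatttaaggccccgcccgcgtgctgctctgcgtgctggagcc
Ldhb: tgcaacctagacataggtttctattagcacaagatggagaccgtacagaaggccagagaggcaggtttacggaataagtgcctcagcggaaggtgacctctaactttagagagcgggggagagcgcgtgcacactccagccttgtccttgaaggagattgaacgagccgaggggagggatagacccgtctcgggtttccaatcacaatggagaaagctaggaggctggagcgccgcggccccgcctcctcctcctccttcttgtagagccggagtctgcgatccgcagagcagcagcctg
Counting both strands, the Ldha window held ACGTG 5 times, the Pfkfb3 windows held it 2 times and 1 time, and the letters were absent from the Ldhb window and from the window of a second Ldha start. The 300-base table had 57 promoters for 39 of the 41 genes, and 23 of the 57, from 19 genes, held ACGTG, beside 19.6% of all 32851 promoters. CACGTG was in 8 of the 57 and in 7.15% of all promoters. A match describes the letters only.

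The other PFKFB genes were not called. Pfkfb2, the isoform best known from heart and kidney, was at 10.4 and 7.04 CPM in macula densa cells on control diet and at 3.06, 3.85, 4.51 and 6.65 CPM in control cells. On low salt and enalapril it was at 2.89 and 6.07 CPM in macula densa cells and at 4.17, 4.65, 3.79 and 3.87 CPM in control cells. The groups separated on control diet only, where the log2 fold change of 0.94 (SE 0.34) had an adjusted p of 0.116. Pfkfb4 had a log2 fold change of 0.71 on both diets with wide overlap of libraries. Because a ratio of 2 genes within a library does not depend on scaling between libraries, Pfkfb2 counts were divided by Pfkfb3 counts, a pair chosen after its values were seen and therefore not tested. The ratio was 0.238 to 0.326 in control cells on control diet and 0.249 to 0.442 on low salt and enalapril. It was 6.31 and 3.60 in macula densa cells on control diet and 2.51 and 1.23 on low salt and enalapril. All 4 macula densa libraries lay above all 8 control-cell libraries, by a mean of 9.99-fold.

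The lactate dehydrogenases had unequal levels. Ldhb, the heart-type subunit associated with lactate use, was at 121 and 129 CPM in macula densa cells on control diet and at 132 and 162 CPM on low salt and enalapril. In control cells it ranged widely, at 31.6, 51.3, 80.5 and 191 CPM on control diet and 110, 45.0, 70.1 and 65.0 CPM on low salt and enalapril. Control-cell replicate 4 on control diet was the only control library above the macula densa range, and the averaged log2 fold change of 0.76 (SE 0.39) had an adjusted p of 0.188. Ldha, the muscle-type subunit that favours lactate formation, was at 13.2 and 13.4 CPM in macula densa cells on control diet, below all 4 control-cell libraries at 19.1, 21.5, 23.9 and 37.4 CPM. On low salt and enalapril, Ldha overlapped, at 17.4 and 13.9 CPM against 24.2, 14.6, 14.9 and 18.8 CPM. The log2 fold change of Ldha was -0.94 (SE 0.31; adjusted p = 0.0862) on control diet and -0.58 (SE 0.21; adjusted p = 0.0739) in the average. The ratio of Ldhb to Ldha counts, also chosen after the values were seen and not tested, was 1.65, 2.39, 3.37 and 5.11 in control cells on control diet and 4.56, 3.08, 4.70 and 3.45 on low salt and enalapril. It was 9.12 and 9.69 in macula densa cells on control diet and 7.56 and 11.7 on low salt and enalapril, above every control-cell library and 2.81-fold higher on average. The thick ascending limb markers share Slc12a1 with the macula densa markers. They summed to 2441 to 4276 CPM in macula densa libraries and 216 to 1623 CPM in control cells. In control-cell replicates 1 to 4 on control diet they were 216, 302, 1034 and 1623 CPM, the same order as Ldhb, and their part in the Ldhb values was not tested. The plot of ratios by library shows both pairs, with the pair Slc2a4 and Slc2a1 taken up below.

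**Figure D2:**
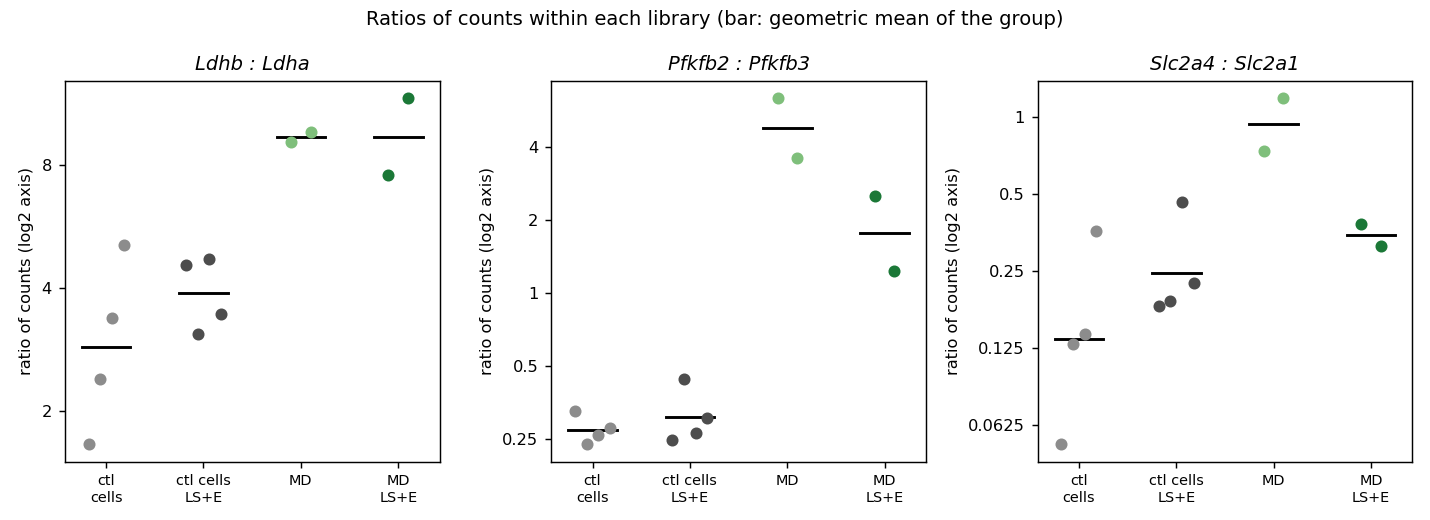
Ratio of counts of 2 genes in each library (log2 axis) for Ldhb:Ldha, Pfkfb2:Pfkfb3 and Slc2a4:Slc2a1, in control cells (ctl) and macula densa cells (MD) on control diet or low salt and enalapril (LS+E), with the geometric mean of each group as a bar. All 4 macula densa libraries lie above all 8 control-cell libraries for Ldhb:Ldha and Pfkfb2:Pfkfb3, and 2 of the 4 do for Slc2a4:Slc2a1.

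Of the genes of pyruvate entry into mitochondria, none was called. They include Pdk1 and Pdk2, kinases that switch off pyruvate dehydrogenase. Pdk2 was at 23.3 and 23.6 CPM in macula densa cells on control diet, above control cells at 8.97, 11.5, 17.2 and 15.6 CPM. On low salt and enalapril it was at 14.8 and 16.2 CPM beside 12.8, 10.8, 11.6 and 15.5 CPM. The averaged log2 fold change of Pdk2 was 0.55 (SE 0.18, adjusted p = 0.0514, and 0.0383 without control-cell replicate 3 on control diet). Pdk2 passed in 6 of 22 alternative analyses of the average, DESeq2 and library totals among them, and in 4 of 23 on control diet. Pdk1, a target of hypoxia-inducible factor, was at 13.1 and 16 CPM on control diet and 20.3 and 28.9 CPM on low salt and enalapril in macula densa cells. Control cells had 3.50, 3.66, 6.48 and 19.2 CPM of Pdk1 on control diet and 9.38, 5.63, 17 and 7.32 CPM on low salt and enalapril. Its averaged log2 fold change was 1.08 (SE 0.42; adjusted p = 0.0895), and the groups did not overlap on low salt and enalapril. Pdha1, the catalytic subunit that these kinases phosphorylate, had 42.2 to 57.2 CPM in macula densa cells and 21.1 to 77.1 CPM in control cells. Pdk4, the kinase induced by fasting, is described with the diets.

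The glucose transporters were not called in either direction. Slc2a1 (GLUT1), the widespread basal transporter, was at 7.90 and 10.6 CPM in macula densa cells on control diet and at 11.5 and 20.3 CPM on low salt and enalapril. In control cells it was at 8.31, 16, 24.9 and 31.4 CPM and at 19.3, 16.6, 15.8 and 18.5 CPM. The log2 fold change on control diet was -1.12 (SE 0.44; adjusted p = 0.140), and 1 control-cell library, replicate 1, lay inside the macula densa range. Without that library the adjusted p was 0.0486. Slc2a4 (GLUT4), the insulin-responsive transporter, was at 5.85 and 12.5 CPM in macula densa cells on control diet and 4.41 and 6.40 CPM on low salt and enalapril. In control cells Slc2a4 ran from 0.437 to 11.3 CPM, so its groups overlapped on both diets. The ratio of Slc2a4 to Slc2a1 counts was 0.740 and 1.18 in macula densa cells on control diet and 0.383 and 0.315 on low salt and enalapril, beside 0.0526 to 0.359 and 0.183 to 0.467 in control cells. Slc2a2 (GLUT2) and Slc2a3 (GLUT3) did not exceed 3.01 CPM in any library.

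For the steps from hexokinase to pyruvate, no gene was called between cell types. Hk1, the housekeeping hexokinase bound to mitochondria, was at 28.9 to 46.4 CPM in macula densa cells and 29.4 to 84.6 CPM in control cells. Gpi1, which isomerises glucose-6-phosphate, had 40.5 to 45.5 CPM and 29.9 to 69.7 CPM. Of the phosphofructokinase subunits, Pfkp was at 17.6 to 27.9 CPM in macula densa and 14.3 to 41.8 CPM in control cells, Pfkl at 7.85 to 8.86 and 4.62 to 17.6 CPM, and Pfkm at 4.43 to 17 and 4.37 to 14.6 CPM. In every case the macula densa range fell within the control-cell range or reached just past it. Of the 7 genes of the aldolase and triose steps, 6 had an averaged log2 fold change below 0 and 1, Aldoa, above it, with a median of -0.17. Pgam2, the muscle-type phosphoglycerate mutase, was at 2.46 and 4.40 CPM in macula densa cells on control diet and at 3.17, 6.67, 10.4 and 37.0 CPM in control cells (averaged log2 fold change -1.52, SE 0.63; adjusted p = 0.106). Pkm, the pyruvate kinase expressed outside liver, had 36.1 to 60.7 CPM in macula densa cells and 34.5 to 122 CPM in control cells. Under scaling by library totals alone, the median of all genes in the averaged comparison moved from -0.06 to 0.14, and 10 of the 35 genes, nearly all of them close to 0, changed sign. These were Slc2a2, Gpi1, Pfkl, Pfkp, Tpi1, Pgk1, Pgam1, Eno1, Eno3 and Slc16a1.

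**Figure D3:**
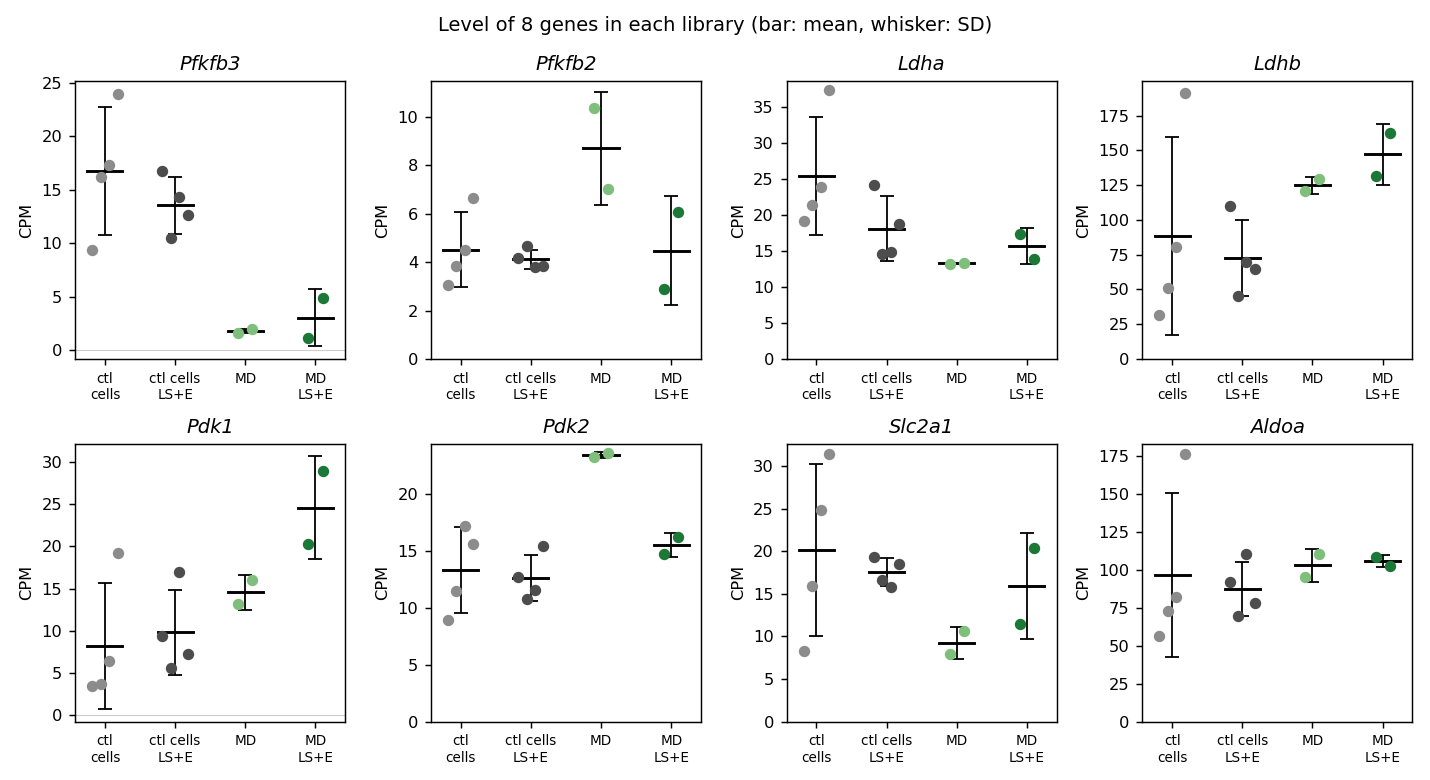
Level in CPM of 8 genes in each library of control cells (ctl) and macula densa cells (MD) on control diet or low salt and enalapril (LS+E), with the mean as a bar and the SD as a whisker (n = 4 for control cells, n = 2 for macula densa cells). Pfkfb3 is at most 4.92 CPM in the macula densa libraries and at least 9.40 CPM in control cells, while the groups of Aldoa overlap.

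The 5 gluconeogenic genes tested leaned the same way on control diet without passing the test. All of them, Pck1, Pck2, Fbp1, G6pc and Pcx, had log2 fold changes above 0, with a median of 1.10, and none was called. Pck1, the cytosolic enzyme that commits oxaloacetate to glucose formation, was at 11.2 and 25.5 CPM in macula densa cells and at 3.50, 3.19, 11.6 and 1.24 CPM in control cells (log2 fold change 1.90, SE 0.93; adjusted p = 0.235). G6pc, which releases free glucose, was at 3.80 and 5.46 CPM beside 1.76 to 2.51 CPM, with no overlap and an adjusted p of 0.319. Fbp1 was at 2.46 and 6.44 CPM beside 0.984 to 3.05 CPM. Proximal tubule markers are given beside them: the 14 markers summed to 198 and 312 CPM in macula densa cells on control diet, to 83.0 to 196 CPM in control cells on that diet, and to 81.0 and 164 CPM in macula densa cells on low salt and enalapril. Of these 14, 4 were called higher and 1 lower in the averaged comparison, and Lrp2, a defining marker of that segment, was at 35.3 and 59.0 CPM in macula densa cells and 13.9 to 27.5 CPM in control cells on control diet. On low salt and enalapril the 5 genes did not lean one way: 2 had log2 fold changes above 0 and 3 below, with a median of -0.25. Pck1 was then at 3.07 and 11.5 CPM in macula densa cells and at 43.7, 2.69, 37.8 and 8.04 CPM in control cells (-1.66, SE 1.06; adjusted p = 0.348), and the proximal tubule markers of those control cells summed to 79.4 to 188 CPM. The part of these markers in the gluconeogenic values was not tested.

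One library stood apart among these genes. Control-cell replicate 4 on control diet had the highest level of its group for 23 of the 35 genes, or 65.7%, while it was highest for 33.9% of all genes tested. The 41 genes took 0.720% of its nuclear protein-coding counts, beside 0.194% to 0.335% in the other 3 libraries of the group and 0.314% to 0.452% in the macula densa libraries. Its thick ascending limb markers summed to 1623 CPM, its endothelial markers to 46.1 CPM and its podocyte markers to 44.8 CPM, the last 2 being the lowest of the 8 control-cell libraries. It was the highest of the 8 for markers of the distal convoluted and connecting tubule (809 CPM, others 102 to 296), principal cells (931 CPM, others 114 to 483) and intercalated cells (425 CPM, others 25.6 to 184), the segments the control sort was meant to collect. The part of this makeup in the levels of the 35 genes was not tested. The plot of all 35 genes by library shows this column.

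**Figure D4:**
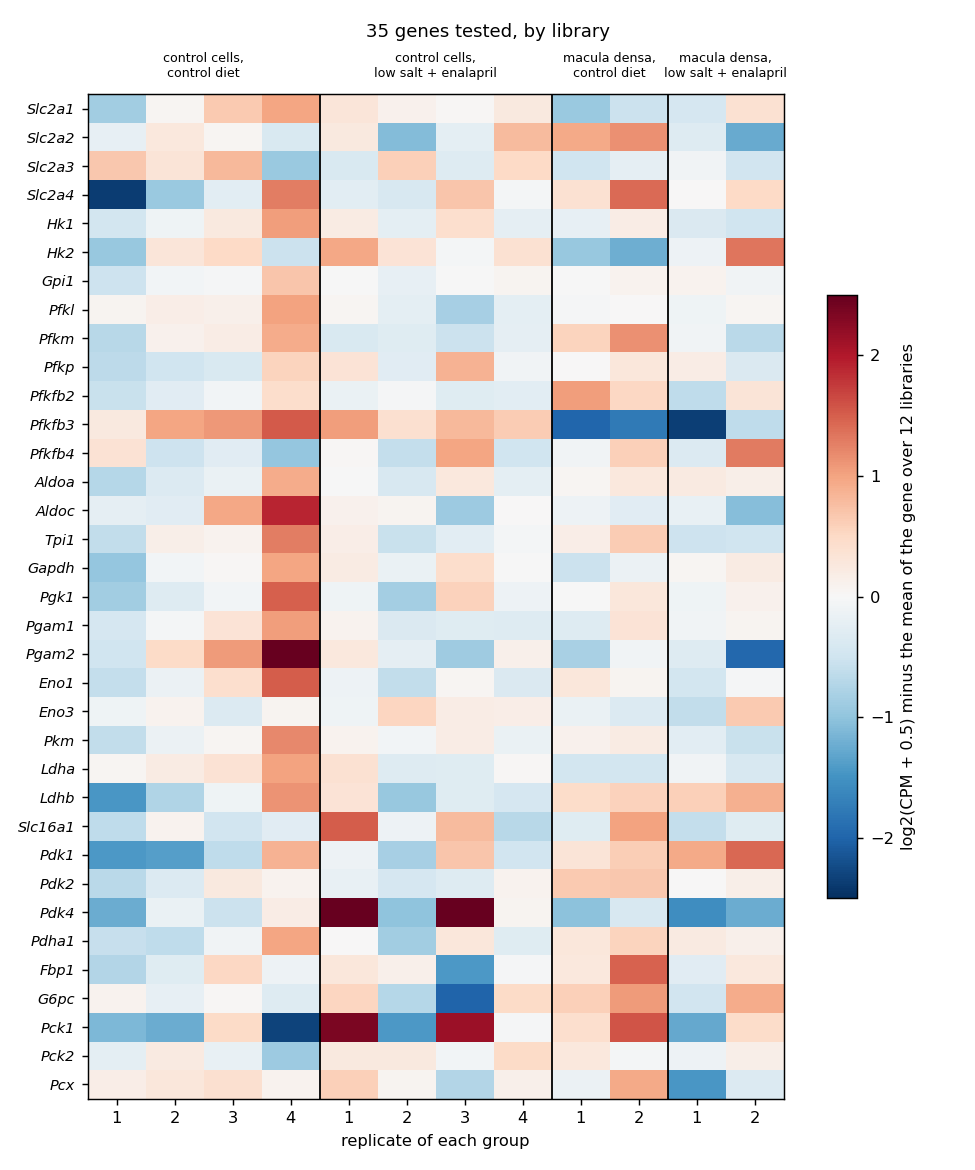
Level of the 35 tested genes in each of the 12 libraries, as log2(CPM + 0.5) minus the gene's mean over the 12, red above and blue below the mean, with colours saturating at the ends of the scale. Control-cell replicate 4 on control diet is highest of its group for 23 genes, Pfkfb3 is low in the 4 macula densa libraries, and Pdk4 and Pck1 are high in control-cell replicates 1 and 3 on low salt and enalapril.

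Without that library the counts of called genes were larger: 7 on control diet, 3 on low salt and enalapril and 6 in the average. More of all genes were called too, at 17.5%, 13.3% and 28.1% in the same fits. The 3 were Pfkfb3 and Pdk4, lower, with Pdk1, higher. The 6 were Pfkfb3, lower, with Pdk1, Pdk2, Ldhb, Slc2a4 and Pdha1, higher. The averaged log2 fold change of Ldhb was then 1.11 (adjusted p = 0.00756), that of Pdk1 1.50 (adjusted p = 0.00167), that of Pdk2 0.59 (adjusted p = 0.0317), that of Slc2a4 1.22 (adjusted p = 0.0422) and that of Pdha1 0.59 (adjusted p = 0.0496). On control diet Pfkfb2 (1.18, adjusted p = 0.0267) and Pfkm (1.01, adjusted p = 0.0423) also passed, and Pfkfb3 kept a log2 fold change of -2.98 (adjusted p = 0.00197).

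Low salt and enalapril changed none of the 35 genes in macula densa cells at an adjusted p of 0.05, where 0 of 14180 genes were called (0% of the background). With 2 libraries on each diet, DESeq2 called 93 genes (0.656% of those tested) and a fit on these 4 libraries alone called 105 (0.927%). None of these was among the genes described here, which at such small shares says little about them. The unadjusted p was under 0.05 for 5 of the 35, beside 11.2% of all genes tested. Libraries of the diets did not overlap for 13 genes in the lower direction, beside 21.9% of all genes, and for 6 in the higher direction, beside 18.8%. The 13 included Pfkm, Pfkfb2, Pkm, Tpi1, Pdk2 and Pcx, and the 6 were Slc2a1, Hk2, Gapdh, Ldha, Ldhb and Pdk1. The median log2 fold change of the 35 was -0.26, beside -0.02 for all genes. Pfkm, the muscle-type phosphofructokinase, went from 11.1 and 17 CPM on control diet to 6.90 and 4.43 CPM (log2 fold change -1.32, SE 0.46; adjusted p = 0.337).

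Hk2, the hexokinase induced by insulin and hypoxia, had the smallest p of the 35 in macula densa cells, on very few reads. It had 1 and 0 counts on control diet and 3 and 15 counts on low salt and enalapril, so its control-diet level is under the floor and no fold is given (adjusted p = 0.287). Slc2a2, the low-affinity transporter of the proximal tubule, went the other way, from 25 and 37 counts to 4 and 1 (log2 fold change -2.59, SE 0.87; adjusted p = 0.325). Pcx, which carboxylates pyruvate to oxaloacetate, was at 3.08 and 7.17 CPM on control diet and 0.958 and 2.62 CPM on low salt and enalapril (log2 fold change -1.50, SE 0.57; adjusted p = 0.369). All 5 gluconeogenic genes had values below 0, with a median of -1.15, alongside the lower proximal tubule marker sums given above. Pfkfb2 was at 10.4 and 7.04 CPM and then at 2.89 and 6.07 CPM (log2 fold change -0.94, SE 0.42; adjusted p = 0.436).

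**Figure D5:**
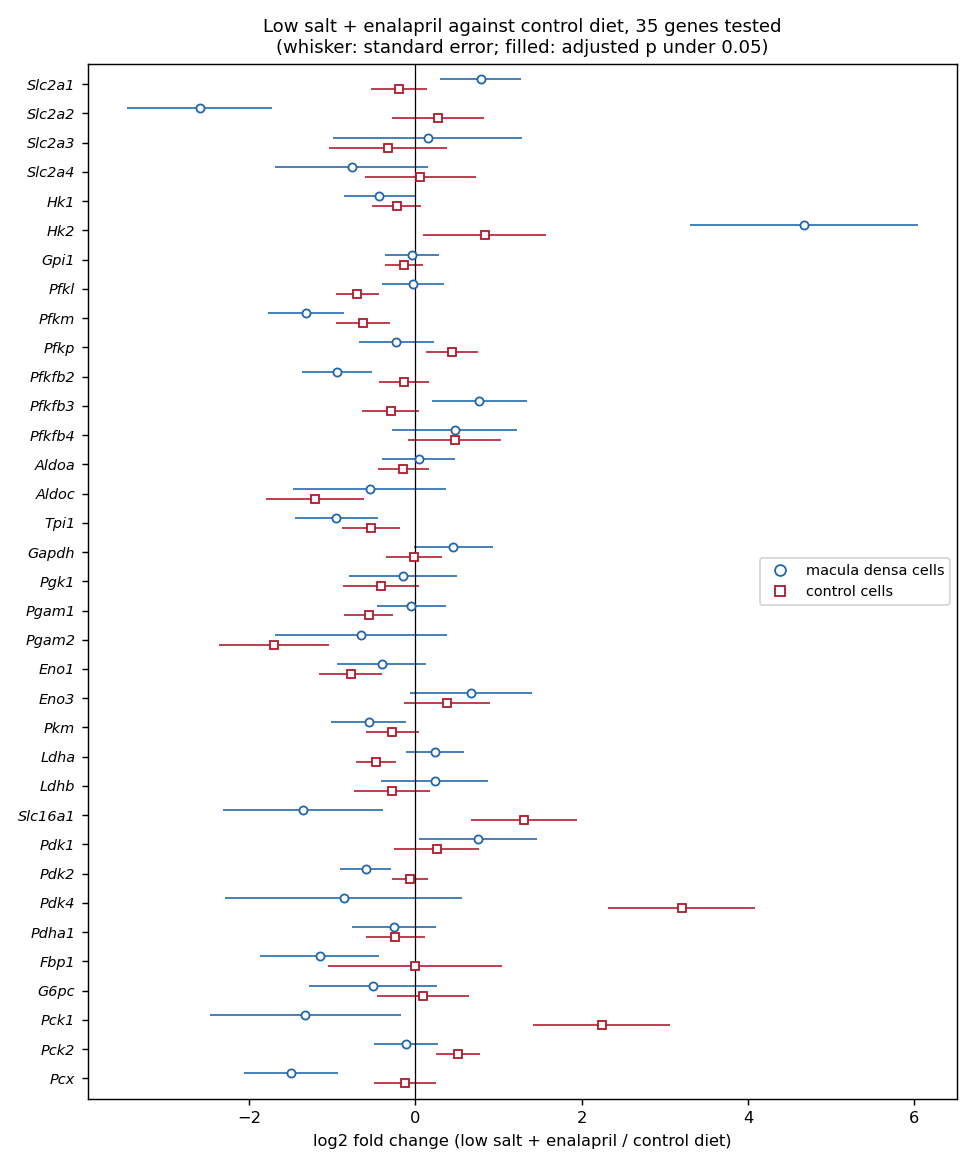
Log2 fold change of the 35 tested genes, low salt and enalapril over control diet, in macula densa cells (blue circles) and control cells (red squares), with standard errors as whiskers. No symbol is filled because none had an adjusted p under 0.05, and the widest separations between the cell types are those of Hk2, whose macula densa value rests on 0 to 15 counts, Pdk4, Pck1 and Slc2a2.

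In control cells none of the 35 genes passed for the diet either, and 0.00705% of all genes tested were called. The unadjusted p was under 0.05 for 4 of the 35, beside 6.45% of all genes. None of the 35 was free of overlap in the higher direction, beside 2.09% of all genes, a share too small for this to say much. Pdk4 and Pck1 had the smallest p-values, and both were high in the same 2 libraries. Pdk4 was at 1.79, 4.32, 3.24 and 5.68 CPM on control diet and at 36.3, 2.20, 95.3 and 5.19 CPM on low salt and enalapril (log2 fold change 3.20, SE 0.89; adjusted p = 0.487). Pck1 was at 3.50, 3.19, 11.6 and 1.24 CPM on control diet and at 43.7, 2.69, 37.8 and 8.04 CPM on low salt and enalapril (log2 fold change 2.24, SE 0.83; adjusted p = 0.688). Replicates 1 and 3 of the treated group were thus above every control-diet library for both genes, while replicates 2 and 4 lay within or near the control-diet range. DESeq2, which called 74 genes here, called Pdk4 (adjusted p = 0.0232). The Pdk4 log2 fold change was 1.99 without treated replicate 3 and 1.39 with limma voom. Endothelial markers summed to 317 and 248 CPM in replicates 1 and 3 and to 862 and 1114 CPM in replicates 2 and 4, and podocyte markers to 138 and 220 CPM against 1104 and 930 CPM. The part of this difference in makeup in the 2 genes was not tested.

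Pdk4 in macula densa cells was at 2.15 and 3.58 CPM on control diet and 1.34 and 1.80 CPM on low salt and enalapril. On the treated diet it was therefore below every control-cell library (log2 fold change -4.44, SE 1.35; adjusted p = 0.0672). It passed without control-cell replicate 2 on that diet (adjusted p = 0.0332), in the average also without replicate 2 or 4 (0.0247 and 0.0406), and by DESeq2. The size was smaller without control-cell replicate 3 on that diet, at -3.23 (adjusted p = 0.0907), and with limma voom, at -2.41 (adjusted p = 0.576). Pfkl, the liver-type phosphofructokinase, was at 8.97, 9.68, 9.33 and 17.6 CPM in control cells on control diet and 8.91, 7.10, 4.62 and 7.12 CPM on low salt and enalapril (log2 fold change -0.70, SE 0.26; adjusted p = 0.694). It was the only gene of the 35 whose diets did not overlap in control cells, a separation that 2.09% of all genes showed in this direction.

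The diet effect did not differ between the cell types for any of the 35 genes at an adjusted p of 0.05, and no gene of the 14180 passed (0% of the background). The unadjusted p was under 0.05 for 5 of the 35, beside 7.03% of all genes tested. The difference, macula densa minus control cells, was -4.06 (SE 1.66) for Pdk4 (-2.20 with limma voom and -2.85 without control-cell replicate 3 on the treated diet), -3.56 (SE 1.43) for Pck1, -2.86 (SE 1.03) for Slc2a2 and -2.66 (SE 1.15) for Slc16a1. Hk2 was the other gene, with no size given because of its counts of 0 to 15. The 5 genes had adjusted p-values from 0.644 to 0.688. Slc16a1 (MCT1), a lactate and pyruvate transporter, was at 0.821 and 2.77 CPM and then 0.575 and 0.820 CPM in macula densa cells, near the floor.

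Divided by exon length, Ldhb had the highest level of the 41 genes in all 4 groups, at 79.7 ± 3.94 CPM per kilobase (SD, n = 2) in macula densa cells on control diet and 56.5 ± 45.4 (SD, n = 4) in control cells. Aldoa, the muscle-type aldolase, followed at 27.7 ± 3.0 and 26.1 ± 14.5. In macula densa cells on control diet the next levels per kilobase were 14.0 ± 1.89 for Pdha1, 11.8 ± 0.498 for Pkm, 9.67 ± 1.43 for Pgk1 and 9.33 ± 0.980 for Eno1. From Pdha1 down these neighbours were separated by about the spread between libraries or less. Pfkfb3 was the 17th of 41 in control cells on control diet, at 2.21 ± 0.789 per kilobase, and the 33rd in macula densa cells, at 0.238 ± 0.0293. Gapdh, often used as a reference gene, was at 3.18 ± 0.634 and 4.47 ± 2.53 per kilobase. Many copies with at least 95% identity to Gapdh were absent from the count table, so its level may miss reads shared with them.

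Some of these levels carry counting uncertainty. Near-identical copies in the table touched 8 of the 41 genes, with Eno1b holding 1750 counts beside 5286 of Eno1, and Gm5514 holding 477 beside 10566 of Ldhb. Summing members with their copies in the table left the number of called genes as it was. Pfkm overlaps Senp1 on the opposite strand, with 917 and 864 counts, and Pfkfb2 overlaps Yod1, with 550 and 241. Whether reads were assigned by strand is not given in the sources used here, so reads of such pairs may be shared. Of the 6 genes that failed the filter, Eno2 (neuronal enolase) had 62 counts over 12 libraries, Pklr (liver pyruvate kinase) 45, Slc2a5 (fructose transporter) 38, Slc16a3 (MCT4) 28, Hk3 22 and Fbp2 19. Hk3 had no count in the 4 macula densa libraries.

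Other genes of glucose metabolism, from lists of the pathway around these 41, are given for the averaged comparison, in which 21.3% of all genes were called. In the averaged cell comparison, 3 of 11 other transport genes were higher and 1 was lower. Slc5a1 (SGLT1), the sodium-glucose cotransporter, was at 142 and 119 CPM in macula densa cells on control diet and 88.5 and 81.2 CPM on low salt and enalapril, beside 1.31 to 14.1 and 4.90 to 27.5 CPM in control cells. Its averaged log2 fold change was 3.35 (SE 0.53; adjusted p = 0.00131), and it passed in every alternative (3.98 with limma voom). Slc16a7 (MCT2), a monocarboxylate transporter of high affinity (1.43, adjusted p = 0.0357), and Mpc2, a subunit of the mitochondrial pyruvate carrier (1.25, adjusted p = 0.00379), were also higher. Slc2a13, a myo-inositol transporter, was lower (-1.33, adjusted p = 0.0422). The call of Slc16a7 was lost on leaving out any 1 of the 4 macula densa libraries, of the 4 control-cell libraries on low salt and enalapril, or of control-cell replicates 2 and 3 on control diet (adjusted p 0.0505 to 0.143). The call of Slc2a13 was lost in 15 of 21 alternatives, with 10 different libraries left out among them (adjusted p 0.0516 to 0.121). Slc5a2, the other kidney sodium-glucose cotransporter, was at 2.97 and 4.32 CPM in macula densa cells on control diet and was not called; it is named outside the rule for called genes, after its values were seen.

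Pygl, liver-type glycogen phosphorylase, was the single call among 12 glycogen genes (1.36, adjusted p = 0.00389), and H6pd, which starts the pentose phosphate pathway in the endoplasmic reticulum, the single call among 8 of that pathway (-1.78, adjusted p = 0.00236). Among 15 other glycolytic and fructose genes, Bpgm was higher (0.92, adjusted p = 0.0167) and Akr1b3, aldose reductase, lower (-1.31, adjusted p = 0.0218). Of 8 further pyruvate dehydrogenase genes, Pdp2, the phosphatase that reactivates the complex, was higher (1.07, adjusted p = 0.00922). Of 18 genes of the tricarboxylic acid cycle, Suclg2 was higher (0.91, adjusted p = 0.0439), a call lost in 11 of 22 alternatives (adjusted p up to 0.149), among them leaving out any 1 of the 4 macula densa libraries. The calls of Bpgm and Akr1b3 were lost without macula densa replicate 1 on control diet (adjusted p = 0.0633 and 0.0870), that of Bpgm also without macula densa replicate 1 on low salt and enalapril (0.0811), and that of Akr1b3 without replicate 2 there (0.0882). Between diets in macula densa cells, 12 of the 18 cycle genes had no overlap in the lower direction, beside 21.9% of all genes, and none was called. In the same libraries thick ascending limb markers summed to 3365 and 4276 CPM on control diet and 2441 and 2588 CPM on low salt and enalapril, and intercalated cell markers to 21.5 and 22.5 CPM and then 57.5 and 72.2 CPM. Their part in the cycle genes was not tested.

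Of 18 regulators of glycolytic genes, 1 was higher and 6 were lower. Mlxipl (ChREBP), the glucose-responsive transcription factor, was at 14.0 and 10.1 CPM in macula densa cells on control diet and 0.984 to 2.29 CPM in control cells (averaged log2 fold change 1.94, SE 0.37; adjusted p = 0.00390). Epas1 (HIF-2α) was lower by the largest margin (-3.08, SE 0.57; adjusted p = 0.00342), followed by Myc (-2.37, adjusted p = 0.0171) and the prolyl hydroxylase Egln3 (-1.90, adjusted p = 0.0147). Hif1a, named here after its values were seen because Ldha, Pdk1 and Pfkfb3 are among its known targets, was at 26.9 to 32.5 CPM in macula densa cells and 29.2 to 93.4 CPM in control cells (-0.82, SE 0.24; adjusted p = 0.0321), a call lost in 9 of 22 alternatives (adjusted p up to 0.112), among them leaving out any 1 of the 4 macula densa libraries, control-cell replicate 3 on control diet, or control-cell replicates 2 or 4 on low salt and enalapril. Of 10 other target genes of hypoxia-inducible factors, 3 were lower: Adm (-2.82, adjusted p = 0.00335), P4ha2 (-2.12, adjusted p = 0.0203) and Vegfa (-1.65, adjusted p = 0.0142). Myc was not called without macula densa replicate 1 on control diet (adjusted p = 0.0629), and Egln3, P4ha2 and Vegfa were not called without replicate 2 on that diet (0.0663, 0.0739 and 0.0670), the last 2 also not without macula densa replicate 2 on low salt and enalapril (0.0920 and 0.0614). Some sizes rested on 1 library: without macula densa replicate 1 on control diet Adm was -3.50 and P4ha2 -2.93, and Myc was -4.75 when replicate 1 of the treated macula densa libraries was left out. Epas1 was at 272, 311, 191 and 33.9 CPM in control cells on control diet, beside endothelial sums of 1413, 1184, 772 and 46.1 CPM in the same libraries. Endothelial and podocyte markers were lower in macula densa cells for all 8 and for 5 of 7 genes tested, and their part in the values of Epas1, Adm and Vegfa was not tested.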

How the data were processed

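The authors deposited expected counts per gene for 12 libraries; 16.1% of values were not whole, and they were rounded before testing. Per the submitters' processing notes, STAR 2.61, Partek and mm10 were used, with no roles given. Per the labels' protocols, libraries came from a total RNA kit that keeps strand. All 23378 rows equalled GENCODE M21 genes (GRCm38) once 1 was taken from each end, and 0 columns lacked a sample. The smallest row sum was 10, so rarer genes are not analysed here. Genes were filtered with filterByExpr of edgeR 4.0.16 in R 4.3.3 (count minimum 10, total minimum 15), scaled by TMM and fitted with glmQLFit and glmQLFTest, 1 coefficient per group over all 12 libraries; p-values were adjusted by Benjamini-Hochberg over 14180 genes at 0.05. Alternatives used DESeq2 1.42.0, limma 3.58.1 voom, other scalings and filters, replicate blocks and leaving out each library. Copies were found with blastn 2.17.0 (95% identity). The code was tested on simulated data. Levels are CPM ± SD. Named genes were all 41, plus at most 3 called genes per direction of each pathway list; Slc5a2 and Hif1a are exceptions, named after their values were seen. The genes, lists and named-gene rule were chosen with earlier results of these data known.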

Additional observations from a re-analysis of the deposited data

Results flagged for a closer look

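Within groups of 4 libraries, 3 of 70 sets (35 genes in 2 groups of control cells) had 1 library far from the others on the log2(CPM + 0.5) scale by Dixon's criterion, and chance gives about 1 in 20, or 3.5. Aldoc, the brain-type aldolase, was at 0.630 CPM in control-cell replicate 3 on low salt and enalapril, which is the floor of 3 counts there, while the other 3 libraries had 1.63 to 1.77 CPM. Pfkl was at 17.6 CPM in control-cell replicate 4 on control diet, beside 8.97 to 9.68 CPM in the others. Pgam1 was at 16.7 CPM in control-cell replicate 1 on low salt and enalapril, beside 12.1 to 12.6 CPM.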

How the results depend on the processing

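The number of the 35 genes called between cell types depended on the analysis. On control diet it was 1, and it was 2 with library totals, 3 with the DESeq2 Wald test and 6 with limma voom. These alternative fits called 6.14%, 14.1% and 13.5% of all genes. With 1 control-cell library left out it was 1 to 7, beside 2.87% to 17.5% of all genes. The Pfkfb3 call on control diet was lost without either macula densa library of that diet, as given above. On low salt and enalapril the number of the 35 called was 1. It was 2 with DESeq2 and 0 with voom, beside 13.6% and 3.64% of all genes. It was 0 to 3 with 1 control-cell library left out, beside 3.65% to 13.3%. In the average the number was 1. It was 3 with library totals and 2 with a mean of at least 5 CPM, beside 23.1% and 28% of all genes. It was 4 with DESeq2 and 3 with voom, beside 26.2% and 18.7%. With 1 control-cell library left out it was 1 to 6, beside 16.7% to 28.1%. For the diet in control cells, DESeq2 called 1 gene, Pdk4, in place of 0, beside 0.522% of all genes. DESeq2 size factors, no filter, only the groups compared, no ribosomal RNA or mitochondrial genes, and summed copies kept each of these counts within 1.5 times the main count; only the groups compared gave no value for the average and the difference of the diets.

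Deviations from the group mean were correlated between same-numbered libraries. Correlations ran from -0.377 to 0.278 for the titles' numbers and from -0.0371 to 0.227 for a number in the descriptions that 8 libraries share. With 2 macula densa libraries on each diet, the deviations within such a group mirror each other. These correlations therefore cannot decide whether libraries were paired, and the main fit did not use the numbers. A replicate block on the titles' numbers gave 1, 0 and 3 called genes on control diet, on low salt and enalapril and in the average. These fits called 2.67%, 2.79% and 13.5% of all genes. In each diet comparison this block called 0 of the 14180 genes. A replicate block on the descriptions' numbers, over 8 libraries, gave 7, 3 and 9 genes beside 15.8%, 15.7% and 25.9% of all genes, and it could not be fitted for the single diet comparisons. These 8 libraries leave out control-cell replicates 1 and 4 on control diet and 1 and 3 on low salt and enalapril. Pdk4 and Pck1 were high in those treated replicates 1 and 3. For these genes, the block and the absence of those libraries cannot be told apart. The labels do not say what the number marks. The 9 genes of the average were Pfkfb3, Pdk1 (1.75, adjusted p = 7.4e-05), Ldhb (1.20, adjusted p = 0.00025), Pdha1 (0.78, adjusted p = 0.0053), Slc2a4 (1.12, adjusted p = 0.0088), Pgam2 (-1.27, adjusted p = 0.031), Slc2a1, Pck1 and Aldoa. Under that block Pdk4 was -1.17 on low salt and enalapril and -0.77 in the difference of the diets, not called, and the titles' block took the Pfkfb3 call on low salt and enalapril to an adjusted p of 0.0791. The averaged Slc5a1 value was 4.28 and 4.11 under the blocks. The causes were not tested. For single genes and ratios, 1239 alternative values kept their direction and side of the threshold, 49 moved past it, 69 lost it and none reversed. Most of these genes were chosen for an unadjusted p under 0.05 in the main fit or were called pathway genes. Such a choice makes a reversal unlikely from the start. Among all 35 genes, 10 changed sign in the average under library totals alone. Leaving 1 macula densa library in an arm assumes that it varies like the other groups. Low depth on protein-coding genes limits Hk2, Slc2a2, Slc16a1 and the 6 untested genes.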
